A study of Danio rerio with 45 samples.

Results

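Section D is the slice next to the vegetal tip of the zebrafish (Danio rerio) embryo, of 5 slices cut from the animal end (section A) to the vegetal end (section E). It was compared between 3 and 1 hours post fertilisation (hpf), with 3 libraries at each stage, which are 6 of the 40 libraries with counts. The method, TOMO-seq, sequences the RNA of each slice separately, here as total RNA cleared of ribosomal RNA. The embryos at 1 hpf were at about the 4-cell stage and those at 3 hpf were blastulae, and 2 libraries of section D from 2 hpf stand between them. The labels name no strain, mutation or treatment for any group, and not how many embryos made up a sample. The 3 replicates of a stage are biological replicates by their labels, and the 5 sections with the same stage and replicate number are treated below as 1 embryo sample. The comparison asks whether RNAs that lie at the vegetal end of the early embryo spread into section D with stage.

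The fish egg stores RNAs at its vegetal pole that the embryo later uses to make germ cells and to set up its dorsal side. Germ plasm RNAs, among them dazl and ddx4, end up in the primordial germ cells. Dorsal determinants are carried away from the vegetal pole along microtubules and act through beta-catenin. The blastomeres form at the animal pole on top of the yolk, and the RNA of the first hours is maternal until transcription of the embryo's own genome begins in the blastula. Among the first RNAs of the embryo's own genome is the microRNA miR-430, which helps to clear maternal RNAs.

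The deposited table counts reads for 12670 genes. Libraries of section D held 4234592 to 5370496 counts at 1 hpf and 2070602 to 4116912 at 3 hpf, and 12340 to 12570 genes had a read in each. Levels are given as CPM, counts per 1e6 reads after TMM scaling, and each describes how much of a section's RNA a gene makes up: fewer cells of a type and less RNA per cell cannot be told apart, nor can a gain of an RNA be told from a loss of the others. Both replicates with the number 3 stood apart in section D. The first principal component of the 6 libraries, 54.5% of the variance, separated them from the other 4. After the stage means were taken off, the 1 and 3 hpf libraries of replicates 1, 2 and 3 correlated at 0.421, 0.402 and 0.751 (11099 genes). This was not particular to D: replicate 3 correlated at 0.808, 0.848, 0.842 and 0.687 in sections A, B, C and E. What a shared number stands for is not given in the labels. Replicates 1 and 2 also deviated together across stages, with correlations of 0.43 and 0.384, so the numbers mainly separate replicate 3 from the others. 2 fits of edgeR's quasi-likelihood test are therefore given, one without the replicate number and one with the number as a block, that is, a comparison of stages within numbers. The fit without the number was planned as the main one, and the block as its alternative. A gene is called where its Benjamini-Hochberg adjusted p over all genes tested is under 0.05, and "rose" and "fell" refer to the fit within replicate numbers unless the other is named. SE is an approximate standard error of a log2 fold change, its size divided by the square root of the quasi-likelihood F statistic.

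Across all genes, edgeR without the block called 0 of 12250 genes higher at 3 hpf, and 2 lower (0.0163%), while an unadjusted p under 0.05 was reached by 584 with a rise and 795 with a decline and DESeq2 called 162 and 159. Within replicate numbers, edgeR called 203 of 12546 genes higher (1.62%) and 224 lower (1.79%). Without the libraries of replicate 2 the counts were 69 and 88, without replicate 1 they were 165 and 214, and without replicate 3 they were 235 and 179.

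Vegetal determinants stood higher in section D at 3 hpf than at 1 hpf. The germ plasm RNA dazl, the dorsal determinant hwa, and sybu, grip2a, trim36, vrtn, ctdsplb and celf1 rose by between 1.51 and 2.03 on the log2 scale within replicate numbers. Each was higher at 3 hpf in 3 of 3 replicate numbers, and the rise was smallest in replicate 3 for all 8. None of the 8 was called by edgeR without the block, while DESeq2 without the block called dazl, hwa, grip2a, vrtn, ctdsplb and celf1 (adjusted p from 2.01e-08 to 0.0194) and not sybu and trim36 (adjusted p = 0.0726 and 0.0881).

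The transcript of dazl, an RNA-binding protein needed for germ cells, had 414, 211 and 347 CPM in section D at 1 hpf in replicates 1, 2 and 3. At 2 hpf it had 652 and 1283 CPM. At 3 hpf it had 2256, 1558 and 549 CPM. The stages did not overlap, the 2 libraries at 2 hpf lay between the means of the other stages, and the lowest value at 3 hpf was that of replicate 3. The mean went from 324 ± 104 CPM (SD, n = 3) to 1454 ± 858 CPM, a log2 change within replicate numbers of 2.03 (SE 0.32, edgeR adjusted p = 0.00431), against an adjusted p of 0.109 without the block. As a share of its level in section E of the same embryo sample, dazl in section D stood at 15.5%, 6.35% and 10.3% at 1 hpf and at 52.4%, 54.6% and 12.8% at 3 hpf. Replicates 1 and 2 moved from under 16% to over 50% of the level in E, and replicate 3 by little. In section E dazl had 2670.0, 3318 and 3354 CPM at 1 hpf and 4305, 2851 and 4285 CPM at 3 hpf, a change that edgeR did not call (log2 0.27, adjusted p = 0.385). One slice further from the vegetal end, in section C, dazl rose from 80.6, 60.6 and 81.5 CPM to 449.9, 360.0 and 142 CPM (log2 1.96, edgeR adjusted p = 3.45e-05).

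The transcript hwa encodes Huluwa, a maternal membrane protein that starts the dorsal program through beta-catenin. It had 47.0, 29.1 and 42.9 CPM in section D at 1 hpf, 91.4 and 109 CPM at 2 hpf, and 251, 121 and 78.2 CPM at 3 hpf. The stages did not overlap, and replicate 1 was the highest at 3 hpf. The log2 change was 1.79 (SE 0.24, edgeR adjusted p = 0.00228, and 0.101 without the block). In section E, hwa also rose, from 174, 278 and 279 CPM to 527, 374 and 465 CPM (log2 0.90, edgeR adjusted p = 7.75e-05). Section D therefore held 27.1%, 10.5% and 15.4% of the level in E at 1 hpf and 47.6%, 32.5% and 16.8% at 3 hpf, with replicate 3 nearly level.

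The genes sybu and grip2a encode a kinesin linker (syntabulin) and a scaffold protein, both known in zebrafish from maternal mutants with dorsal defects. In section D, sybu had 489, 241 and 533 CPM at 1 hpf, 614 and 1086 CPM at 2 hpf and 2079, 1050.0 and 728 CPM at 3 hpf. Its log2 change was 1.57 (SE 0.26, edgeR adjusted p = 0.00567), which lost the call without replicate 2 (log2 1.26, adjusted p = 0.0641). Relative to E, sybu in D stood at 24.7%, 7.49% and 16.7% at 1 hpf and at 43.6%, 28.1% and 14.9% at 3 hpf, lower in replicate 3. For grip2a the values were 202, 119 and 129 CPM at 1 hpf, 321 and 571 CPM at 2 hpf and 1189, 487 and 297 CPM at 3 hpf. Both genes had all 3 hpf values above all 1 hpf values. The log2 change of grip2a was 1.95 (SE 0.20, edgeR adjusted p = 0.00065, and 0.116 without the block). In section E grip2a rose as well, from 1011, 1154 and 881 CPM to 3359, 2139 and 2875 CPM (log2 1.43, edgeR adjusted p = 5.92e-09). The level of grip2a in D was 19.9%, 10.3% and 14.6% of that in E at 1 hpf and 35.4%, 22.8% and 10.3% at 3 hpf, so that replicates 1 and 2 stood higher at 3 hpf and replicate 3 lower.

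The ubiquitin ligase transcript trim36 had 1127, 665 and 768 CPM in section D at 1 hpf and 4713, 2240.0 and 1217 CPM at 3 hpf (log2 1.51, SE 0.21, edgeR adjusted p = 0.00255). The transcription regulator transcript vrtn had 144, 102 and 168 CPM at 1 hpf and 729, 482 and 290.1 CPM at 3 hpf (log2 1.80, SE 0.24, edgeR adjusted p = 0.00228). The phosphatase transcript ctdsplb had 309.6, 232 and 379 CPM at 1 hpf and 1715, 1044 and 693 CPM at 3 hpf (log2 1.85, SE 0.24, edgeR adjusted p = 0.00179). None of these 3 genes had overlapping stages, and in each the order at 3 hpf was replicate 1, 2 and then 3. The 2 libraries at 2 hpf had 1973 and 2410.0 CPM for trim36, 313 and 372 CPM for vrtn and 676 and 733 CPM for ctdsplb, all above the 1 hpf values. Relative to section E of the same embryo sample, trim36 in D stood at 31.5%, 14.8% and 19.3% at 1 hpf. At 3 hpf it stood at 49.1%, 29.9% and 16%, lower in replicate 3. For vrtn the shares were 25%, 13.3% and 22.2% and then 53.8%, 53.8% and 25.6%. For ctdsplb they were 25.6%, 14.2% and 23% and then 62.4%, 51.3% and 23.6%.

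**Figure D1:**
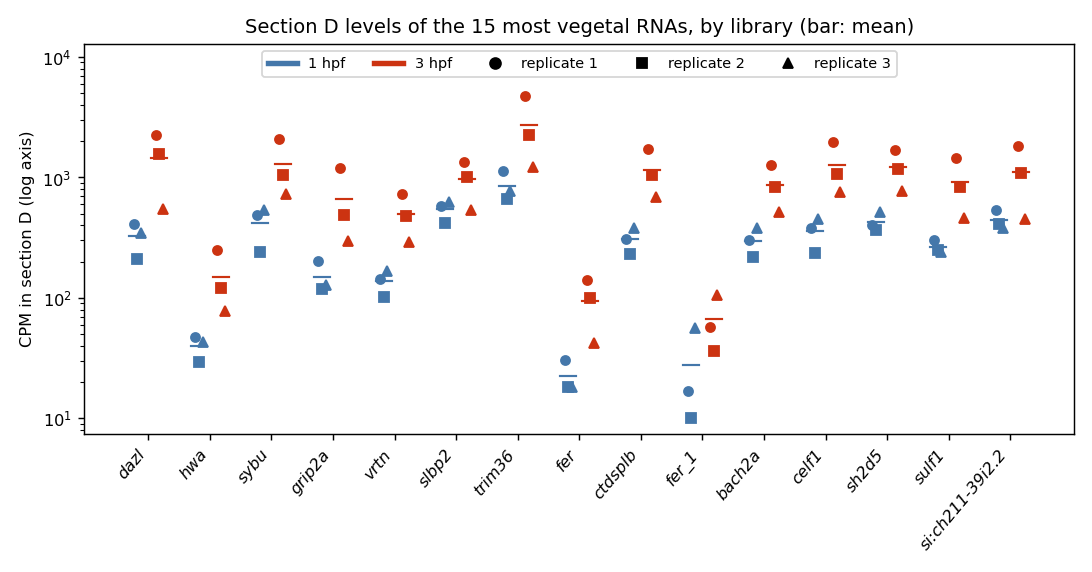
CPM in section D (log axis) of the 15 RNAs with the largest E over A change at 1 hpf, 1 point per library at 1 and 3 hpf, with the shape giving the replicate and a bar the mean of 3. For dazl the 3 hpf points (549 to 2256 CPM) lie above the 1 hpf points (211 to 414 CPM), and the triangle of replicate 3 is the lowest at 3 hpf.

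Other germ plasm RNAs did not move in this way. The gene list held 14 of them, of which celf1, hook2 and dazl rose, ca15b fell and the others were not called by edgeR (median log2 change -0.0047 within replicate numbers). Of all genes, 1.62% rose and 1.79% fell. The helicase transcript ddx4 (vasa), a germ cell marker, had 467, 480.2 and 611 CPM at 1 hpf and 438, 469 and 617 CPM at 3 hpf (log2 -0.03, edgeR adjusted p = 0.946). The stages overlapped for ddx4, and also for buc, which organises the Balbiani body of the oocyte. For buc, the values were 1381, 1277 and 1795 CPM at 1 hpf and 1385, 1570.0 and 1480.0 CPM at 3 hpf (log2 0.02, edgeR adjusted p = 0.973). The direction of both depends on the library left out. The germ cell gene dnd1, whose protein guards RNAs against miR-430, had 145, 139 and 166 CPM at 1 hpf and 203, 238 and 172 CPM at 3 hpf, without overlap but not called (log2 0.44, edgeR adjusted p = 0.131). When replicate 3 was left out, dnd1 was called higher (log2 0.64, edgeR adjusted p = 0.0331).

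The RNA-binding protein transcript celf1 had 382, 236 and 452 CPM in section D at 1 hpf, 691 and 959 CPM at 2 hpf and 1975, 1078 and 763 CPM at 3 hpf. The stages did not overlap (log2 1.79, SE 0.25, edgeR adjusted p = 0.00245). Relative to E, celf1 in D stood at 24.4%, 11.4% and 19.6% at 1 hpf and at 50.2%, 40.8% and 21% at 3 hpf. The transcript of hook2, of a family of adaptors between cargo and microtubule motors, had 378, 374 and 550.2 CPM at 1 hpf, 1147 and 742 CPM at 2 hpf and 1260.0, 1056 and 694 CPM at 3 hpf (log2 1.2, SE 0.21, edgeR adjusted p = 0.00839, and 0.0844 without replicate 2). In section E hook2 fell, from 1414, 1441 and 1713 CPM to 717, 808 and 1323 CPM (log2 -0.74, edgeR adjusted p = 0.00015). Section D thus held 26.7%, 26% and 32.1% of the level in E at 1 hpf and 176%, 131% and 52.5% at 3 hpf, above E in replicates 1 and 2. The carbonic anhydrase family gene ca15b went the other way, from 1248, 1244 and 1931 CPM to 493, 1213 and 908 CPM in D (log2 -0.81, edgeR adjusted p = 0.0472). That call was lost without replicate 1 (adjusted p = 0.0504) and without replicate 3 (adjusted p = 0.172). In section E, ca15b fell by 2.31 on the log2 scale (edgeR adjusted p = 2.78e-13).

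For the vegetal RNAs as a whole, the list held the 401 genes at least 2-fold higher in section E than in section A at 1 hpf with an edgeR adjusted p under 0.05 (edgeR called 6.52% of all genes higher in E and 5.89% lower). The libraries of section D were not used to choose them, but those at 1 hpf come from the same embryo samples as the E and A libraries that were, and changes in A and E use those libraries themselves. Just outside the limit were sntb2, zbtb34 and zbtb43 with a log2 E over A of 0.99 each, and just inside were clcn3, rab11al and zgc:92594 with 1.00 each. Within replicate numbers, 140 of the 401 rose in D (34.9%, against 1.62% of all genes) and 1 fell, and 362 had a change above 0. The median log2 change was 0.61, with quartiles of 0.33 and 0.88, beside -0.0045 for all genes. Without replicate 2, 49 of the list rose, without replicate 1, 98, and without replicate 3, 182. The fit without the block called 0 of 397 higher and 0 lower, with an unadjusted p under 0.05 for 191 above and 6 below 0 and the same median of 0.61. DESeq2 without the block called 114 higher and 0 lower of the 340 vegetal RNAs to which it gave an adjusted p. These 340 are only a part of the 397, and the share of all genes called by DESeq2 is not given here. The count therefore cannot be set beside the edgeR shares. In 175 of these 397 genes (44.1%) all 3 hpf values lay above all 1 hpf values, against 8.32% of all genes, and in 5 (1.26%, against 10%) they lay below.

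The median change was higher among the more vegetal RNAs. Of the 144 genes at least 4-fold higher in E than in A, 82 rose in D (56.9%, beside 1.62% of all genes), with a median log2 change of 0.94. This was not particular to D: 34 of 141 rose in B, 85 of 142 in C and 68 of 144 in E. The medians there were 0.33, 0.59 and 0.47. Of all genes, 0.825% rose in B, 2.82% in C and 1.8% in E. In section A, 0 of 137 rose, beside 0.644% of all genes. Among the 15 with the largest E over A change (log2 3.84 to 6), 12 had all 3 hpf values in D above all 1 hpf values. This held for 8.32% of all genes. Of the 15, 14 rose in D, by 0.77 to 2.03 for the 15 (edgeR adjusted p from 0.00065 to 0.0985). The exception was slbp2, a protein that binds the stem-loop of histone mRNAs, with 581, 420.0 and 626 CPM at 1 hpf and 1345, 1016 and 538 CPM at 3 hpf (log2 0.77, edgeR adjusted p = 0.0985). In slbp2 replicate 3 was lower at 3 hpf than at 1 hpf, and replicates 1 and 2 were higher. Of the same 15, fer, a tyrosine kinase gene with a second row (fer_1) that may share its reads, had 30.6, 18.2 and 18.4 CPM at 1 hpf and 142, 99.8 and 42.03 CPM at 3 hpf (log2 1.97, SE 0.23, edgeR adjusted p = 0.00127). Lists made in the same way from E and A at 2 hpf and at 3 hpf gave 147 of 437 and 153 of 544 genes that rose in D within replicate numbers.

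Seen from the genes that changed, 140 of the 203 genes that rose in D (69%) were vegetal RNAs and 0 were animal RNAs, the 173 genes at least 2-fold higher in A than in E at 1 hpf. Of the 224 that fell, 1 was a vegetal RNA (0.446%) and 6 were animal RNAs (2.68%). Among all genes tested, the shares are 3.2% and 1.37%. The animal RNAs had a median log2 change in D of -0.37 within replicate numbers, with 0 called higher and 6 called lower of 172 (with an unadjusted p under 0.05 for 1 above and 45 below 0, and 0 and 3 calls by DESeq2). Without the block the median was -0.32, and it was -0.11 without the 3 hpf library of replicate 1 and -0.59 without that of replicate 3.

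**Figure D2:**
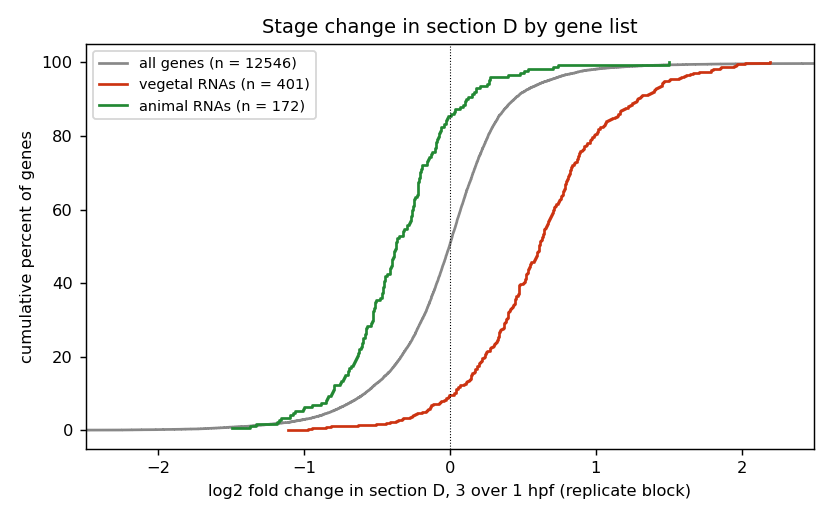
Cumulative percent of genes against the log2 change in section D from 1 to 3 hpf, within replicate numbers, for all genes tested, the vegetal RNAs and the animal RNAs. The curve of the vegetal RNAs lies to the right of that of all genes, with medians of 0.61 and -0.0045, and the animal curve to its left, with a median of -0.37.

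The size of the change differed between the 3 replicate numbers. The stages are separate samples, set against each other here by number only. Numbers 1 and 2 correlated across stages about as well with each other (0.43 and 0.384) as with themselves (0.421 and 0.402). The median vegetal RNA in D changed by 1.01 on the log2 scale in replicate 1, by 0.608 in replicate 2 and by 0.212 in replicate 3, and 91.5%, 87% and 68.1% of the list was above 0. Animal RNAs had medians of -0.844, -0.366 and 0.0583 in the same order, so the median animal RNA was below 0 in replicates 1 and 2 and not in replicate 3. As a share of all counts of section D, vegetal RNAs made up 5.46%, 4.89% and 6.16% at 1 hpf, 8.62% and 8.35% at 2 hpf, and 12.3%, 8.65% and 7.16% at 3 hpf. The stages 1 and 3 hpf did not overlap. Animal RNAs made up 1.36%, 1.37% and 1.34% at 1 hpf, 1.11% and 1.23% at 2 hpf and 0.702%, 1.03% and 1.36% at 3 hpf, where replicate 3 was within the 1 hpf values.

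Along the axis, calls among the vegetal RNAs were few in section A and more numerous toward the vegetal end. Within replicate numbers, edgeR called 37 of 396 higher and 4 lower in section B (median log2 0.18, with 0.825% of all genes higher and 2.13% lower), 129 of 399 higher and 7 lower in section C (median 0.35, with 2.82% and 4.58% of all genes) and 129 of 401 higher and 15 lower in section E (median 0.36, with 1.8% and 2.39%). In section A, 1 of 392 was called higher and 8 lower (median 0.0039, with 0.644% and 1.55%). The median was highest in D. The share of counts from vegetal RNAs in section E went from 11.9%, 13.7% and 14.8% to 18.4%, 15.1% and 19.4%, and in section C from 3.68%, 3.44% and 3.81% to 5.43%, 4.87% and 4.09%, both without overlap. Animal RNAs were called lower in 27 genes in B and 49 in C, with medians of -0.30 and -0.34, and 0 were called higher in either.

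The place of section D between B and E can be read within an embryo sample, as the level of a gene in D minus that in B, divided by the level in E minus that in B. A value of 0 stands for the level of B and 1 for that of E. The median over the vegetal RNAs was 0.242, 0.152 and 0.238 at 1 hpf, 0.432 and 0.259 at 2 hpf, and 0.542, 0.402 and 0.2 at 3 hpf. Replicates 1 and 2 at 3 hpf were above all 1 hpf values, and replicate 3 lay within them. The means were 0.211 ± 0.0508 (SD, n = 3) and 0.381 ± 0.172, a difference of 0.171, which was 0.0911 without the 3 hpf library of replicate 1 and 0.262 without that of replicate 3. In the same terms section C stood at 0.0401, 0.0131 and 0.0418 at 1 hpf and at 0.0967, 0.0873 and 0.0329 at 3 hpf. These values are nearer to B than those of D, but the pattern was the same. Replicates 1 and 2 at 3 hpf were above all 1 hpf values of C, and replicate 3 lay within them. The means of C were 0.0317 and 0.0723.

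**Figure D3:**
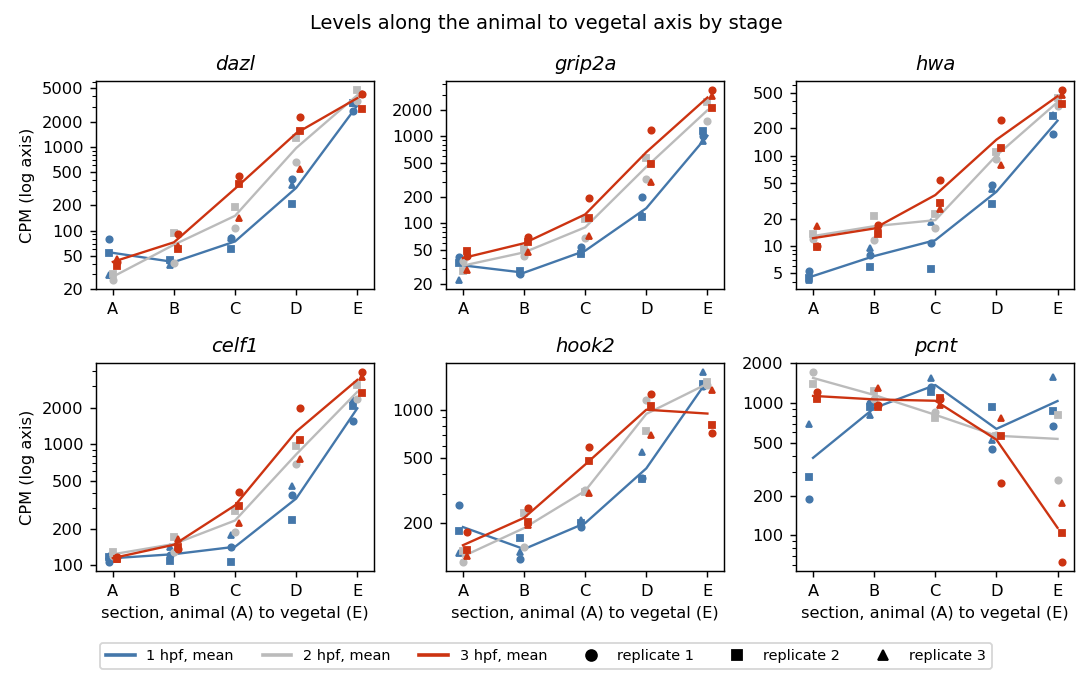
CPM (log axis) of dazl, grip2a, hwa, celf1, hook2 and pcnt in sections A to E at 1, 2 and 3 hpf, with 1 point per library, the shape giving the replicate and lines joining the stage means. For dazl the 3 hpf points lie above the 1 hpf points in sections C and D (in D 549 to 2256 against 211 to 414 CPM) and overlap them in section E, while pcnt drops in section E.

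Whether the stage change of D differed from that of section B was tested in 1 edgeR fit over the 30 libraries of 1 and 3 hpf with the embryo sample as a block. Of 12667 genes, 27 moved toward D (0.213%) and 7 away from it (0.0553%). Of the 27, 21 were among the 401 vegetal RNAs, 24 had also risen in D, and the median vegetal RNA moved toward D by 0.44 on the log2 scale (353 of 401 above 0), beside -0.0059 for all genes. These counts rest on single embryo samples. Without the 1 hpf sample of replicate 1, 2 or 3, 8, 0 and 14 genes moved toward D, and without the 3 hpf sample of replicate 1, 2 or 3 the counts were 1, 4 and 98. The genes away from D numbered 2, 2 and 4, and 1, 3 and 44, in the same order. Against section A, 79 genes moved toward D (0.624%, of them 68 vegetal) and 13 away (0.103%), a comparison that shares the section A libraries at 1 hpf with the choice of the list.

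Of the genes that moved toward D relative to B, gnav1, a G protein alpha subunit, had 40.3, 31.9 and 35.9 CPM in D at 1 hpf and 168, 113 and 69.3 CPM at 3 hpf. In B it had 15.04, 17.2 and 16.0 CPM and then 14.9, 10.9 and 18.1 CPM, so the stages overlapped in B and not in D (difference of the log2 changes 1.77, SE 0.31, edgeR adjusted p = 0.00642). The kinase gene map3k1 had 412, 341 and 451 CPM in D at 1 hpf and 2094, 1060.0 and 861 CPM at 3 hpf, beside 277, 263 and 245 CPM and 328, 285 and 315 CPM in B (difference 1.42, SE 0.23, edgeR adjusted p = 0.00379). The stages of map3k1 did not overlap in either section. For celf1, B had 121, 109.8 and 141 CPM at 1 hpf and 138, 143 and 164 CPM at 3 hpf, and the difference from D was 1.51 (SE 0.27, edgeR adjusted p = 0.00777). The lipid kinase gene pip4k2aa (49.0, 38.7 and 57.4 CPM in D at 1 hpf, 297, 185 and 116 CPM at 3 hpf), the RNA-binding protein gene larp4b, cdr2a and mob1bb, a co-activator of kinases of the Hippo pathway, also moved toward D, by 1.63, 1.2, 1.19 and 1.19 (edgeR adjusted p from 0.00642 to 0.049). When each of the 6 embryo samples was left out in turn, the calls of map3k1 and cdr2a were lost in 2 cases, those of gnav1, celf1 and mob1bb in 3, and those of pip4k2aa and larp4b in 5, the highest adjusted p being 0.543 for larp4b without the 3 hpf sample of replicate 1.

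The best known determinants were not called in this test. The difference from B was 1.3 for dazl (SE 0.43, edgeR adjusted p = 0.326), 0.78 for hwa (SE 0.44, adjusted p = 0.704), 0.95 for sybu (adjusted p = 0.414), 0.88 for grip2a (SE 0.33, adjusted p = 0.473) and 0.55 for hook2 (adjusted p = 0.694). Also not called were trim36 (0.50, edgeR adjusted p = 0.753), vrtn (0.88, adjusted p = 0.315) and ctdsplb (0.91, adjusted p = 0.187), while celf1 was called, as given above. All of these differences are above 0. For dazl, section B itself rose (log2 0.77, edgeR adjusted p = 0.0151). Without the 3 hpf embryo sample of replicate 3 the difference of dazl was 1.73 (edgeR adjusted p = 0.00164). In that fit sybu, grip2a, vrtn and ctdsplb were called as well (edgeR adjusted p = 0.0424, 0.0404, 0.00686 and 0.000738), among 98 genes toward D. Of the 6 fits that leave out 1 embryo sample, it was the only one that called dazl, sybu, grip2a, vrtn or ctdsplb. The genes hwa, hook2 and trim36 were called in 0 of the 6.

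Against the neighbouring sections, few genes differed. No gene moved toward D relative to section C by edgeR and 2 moved away (0.0158%). An unadjusted p under 0.05 was reached by 357 toward D and 333 away. The median vegetal RNA stood at 0.22 toward D. DESeq2 called 9 toward D and 3 away in the same contrast. Relative to section E, 9 genes moved toward D (0.0711%) and 4 away (0.0316%), and 3 of the 9 were vegetal RNAs. That comparison shares the section E libraries at 1 hpf with the choice of the list. Those 3 were hook2 (difference 1.82, SE 0.30, edgeR adjusted p = 0.00364), fer (difference 1.42, edgeR adjusted p = 0.0299) and pcnt, described below. The difference of hook2 came with a rise in D and a decrease in E. That of pcnt came with a decrease in E and no call in D.

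In the same comparison 2 RNAs that fell in section E were not called in D. The gene pcnt encodes pericentrin, a scaffold of the centrosome, and had 673, 874 and 1564 CPM in E at 1 hpf and 63.4, 104 and 175 CPM at 3 hpf (log2 -3.21, edgeR adjusted p = 1.05e-18). In D it had 446, 939 and 530.0 CPM and then 249, 564 and 775 CPM, with overlapping stages and no call (log2 -0.33, edgeR adjusted p = 0.519). The change in D exceeded that in E by 2.80 (SE 0.44, edgeR adjusted p = 0.00275). In section A, at the other end, pcnt rose by 1.73 on the log2 scale (edgeR adjusted p = 0.000818). For lrmp, which encodes a membrane protein known in zebrafish for joining the pronuclei with the centrosome (futile cycle), D had 243, 334 and 239 CPM and then 116, 286 and 410.5 CPM (log2 -0.13, edgeR adjusted p = 0.875). Section E had 283, 292 and 439 CPM of lrmp at 1 hpf and 20.9, 44.2 and 43.7 CPM at 3 hpf, 3.17 lower in its change than D (SE 0.36, edgeR adjusted p = 9.04e-06). Without the block, the direction of the small changes of pcnt and lrmp in D depends on the library left out. Within replicate numbers this holds for lrmp only. There, pcnt was called lower in D when replicate 3 was left out (log2 -0.78, edgeR adjusted p = 0.00767). Of the 30 centrosome and spindle genes of the list, 4 fell in D and 0 rose (median log2 -0.16), beside 1.79% and 1.62% of all genes. They were cetn3, a centrin, with 93.4, 109 and 68.2 CPM and then 49.3, 67.7 and 29.5 CPM (log2 -0.92, SE 0.17, edgeR adjusted p = 0.00896), numa1, ckap5 and aurka. The spindle pole protein transcript numa1 fell by 0.64 (adjusted p = 0.00964), and the microtubule polymerase ckap5 and the kinase aurka fell by 0.63 and 0.62 (adjusted p = 0.0288 and 0.0411), the last pair not without replicate 1 or without replicate 2. The centrosome protein transcript cep350 was not called, with 796, 914 and 640.5 CPM and then 741, 892 and 628 CPM (log2 -0.05, edgeR adjusted p = 0.901).

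RNAs of the embryo's own genome appeared in section D at 3 hpf, and unequally so between its libraries. Of 23 early zygotic genes listed, 11 have a row in the table, and their summed level in D was 10, 13.8 and 11.8 CPM at 1 hpf, 12.9 and 7.84 CPM at 2 hpf and 33, 121 and 310 CPM at 3 hpf. All 3 libraries at 3 hpf were above the earlier ones, with replicate 3 highest and replicate 1 lowest, the reverse of the order of the vegetal RNAs. Depth ran in the same order, with 2070602, 2354726 and 4116912 counts, and its part in the result was not tested. Most of the sum in D at 1 hpf came from mixl1, which was lower at 3 hpf but not called. Its mean went from 8.01 to 4.84 CPM, or from 117 to 38 counts over the group (log2 -0.74, edgeR adjusted p = 0.496). At 3 hpf the sum was 153, 132 and 259 CPM in section C and 49.2, 23.7 and 16.1 CPM in section E. By this sum D lay below E in replicate 1, near C in replicate 2 and above C in replicate 3. The sums of D and E came from different genes, however. In E most counts were of sox3 (92 over the group) and mixl1 (37), with 0 of vox, her5, irx7 and gadd45bb. Replicate 1 of D had 22 counts of klf17, 16 of sox3, 11 of gadd45bb and 11 of mixl1.

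**Figure D4:**
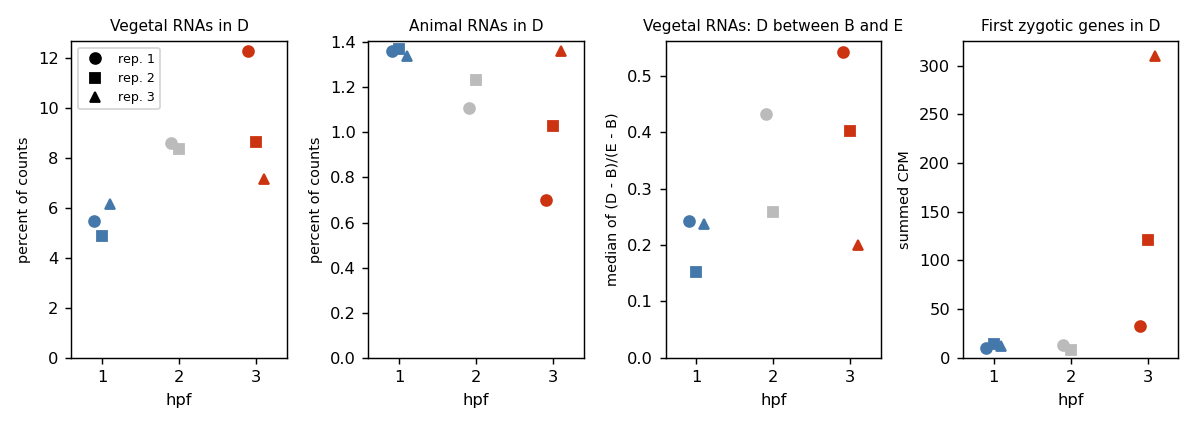
Values of each library of section D at 1, 2 and 3 hpf, with the shape giving the replicate: percent of counts from vegetal and from animal RNAs, the median place of D between B (0) and E (1), and the summed CPM of first zygotic genes. At 3 hpf the replicates 1, 2 and 3 run from 12.3% down to 7.16% for vegetal RNAs and from 33 up to 310 CPM for zygotic genes.

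Only 7 of the 11 rows passed the filter on low counts, most of them through their 3 hpf libraries, so the 6 that rose are a description and not a test of the list. The transcription factor gene vox, a ventral repressor of dorsal genes, had 0 counts in D at 1 hpf and 0, 64 and 190 counts at 3 hpf, at least 147-fold higher against a floor of 3 counts over the group. Its total over the 3 replicates at 3 hpf was 370 counts in C and 0 in E. The Krueppel-like factor klf17 had 7, 8 and 4 counts in D at 1 hpf and 22, 80 and 330 at 3 hpf. Its CPM were 1.43, 1.87 and 0.736 and then 11.2, 33.8 and 81.1 (log2 4.77). The neural gene sox3 had 12, 7 and 7 counts and then 16, 50 and 157 counts (log2 3.5). No adjusted p is given for klf17 and sox3, as both had few reads at 1 hpf and passed the filter through their 3 hpf libraries. For her5 and irx7, which encode transcription factors, there was 1 count each at 1 hpf and 3, 14 and 131, and 2, 24 and 132, at 3 hpf. Each of these genes was highest in replicate 3. The same order was seen for drll.3, a zinc finger gene, with 0 counts at 1 hpf and 4, 27 and 123 at 3 hpf (at least 89.3-fold higher), and for gadd45bb, of a family of stress and growth arrest genes, with 1 count and then 11, 32 and 170 counts. Less uneven were filip1a, with 0, 0 and 0.736 CPM and then 6.09, 11.4 and 13.03 CPM, and the homeobox gene lbx2, with 8.38, 1.87 and 2.94 CPM and then 21.8, 17.3 and 19.2 CPM (log2 2.33, edgeR adjusted p = 0.00874, lost without replicate 2).

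The precursor genes of the microRNA miR-430 have 10 rows in the table, copies of near-identical sequence. Reads may be split between the rows, so the rows are uncertain one by one. Summed, they had 0 CPM in each library of D at 1 and 2 hpf and 15.2, 116 and 102 CPM at 3 hpf. The row dre-mir-430a-2 had 7, 62 and 140 counts at 3 hpf, at least 121-fold above the floor, with 344 counts in section C and 4 in section E. As for vox, replicate 1 was the lowest and section E held few reads.

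The enveloping layer, the outer cell sheet of the blastula, was marked by 4 genes with a summed level in D of 95.6, 126 and 128 CPM at 1 hpf and 161, 180 and 255 CPM at 3 hpf, without overlap. Of the 4, 3 rose (beside 1.62% of all genes), again a description where a gene was at or near 0 at 1 hpf. Among them, gata3 had 0 CPM in each library at 1 hpf and 0, 12.3 and 24.3 CPM at 3 hpf, and grhl3 had 0 CPM and then 0, 5.92 and 17.2 CPM. Both were at 0 in replicate 1 at 3 hpf. The other gene that rose, klf17, is also in the zygotic list. Nearly all of the sum at 1 hpf came from ppl, which was not called (means of 115 and 137 CPM, log2 0.26, edgeR adjusted p = 0.438). Of the yolk syncytial layer list only ctsla could be tested, and it was not called (log2 0.52, edgeR adjusted p = 0.0955). The part of cell-type content in the changes of section D was not tested.

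Many of the RNAs that fell in section D fell in other sections too. Of the 224 that fell in D, 174 also fell in C (77.7% of these and 30.2% of the 577 that fell in C), 119 in E (53.1%, and 40.9% of the 291 in E), 104 in B (46.4%, and 38.7% of the 269 in B) and 95 in A (42.4%, and 48.7% of the 195 in A). Of the 203 that rose in D, 137 rose in C (67.5%, and 38.5% of the 356 in C), 121 in E (59.6%, and 55.3% of the 219 in E), 65 in B (32%, and 62.5% of the 104 in B) and 25 in A (12.3%, and 30.9% of the 81 in A). The 2 genes called by both fits were alg13, a subunit of an enzyme of protein N-glycosylation, and hic1l, a relative of the zinc finger repressor Hic1. The gene alg13 had 131, 114 and 136 CPM at 1 hpf, 128 and 106 CPM at 2 hpf and 41.1, 44.8 and 33.2 CPM at 3 hpf, with all 3 hpf values below all others. Its log2 change was -1.69 without the block (SE 0.16, edgeR adjusted p = 0.034) and -1.68 within replicate numbers (adjusted p = 0.000536), beside -1.35, -1.41, -1.31 and -1.48 in A, B, C and E. The difference of alg13 from B was not called (-0.28, edgeR adjusted p = 0.802). The gene hic1l had 176, 174 and 165 CPM at 1 hpf, 117 and 174 CPM at 2 hpf and 46.7, 59.6 and 67.8 CPM at 3 hpf (log2 -1.55, SE 0.15, edgeR adjusted p = 0.000536). In A, B, C and E hic1l changed by -0.73, -0.88, -1.11 and -1.34, and the difference of D from B was -0.70 (edgeR adjusted p = 0.22).

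Within replicate numbers, the 12 largest decreases were taken among called genes with a descriptive symbol, at least 10 CPM at 1 hpf and no overlap between stages. Each of the 12 was below 0 in the other 4 sections as well. The calcium-binding protein gene pef1 had 41.9, 41.8 and 28.5 CPM and then 6.09, 6.77 and 3.44 CPM (log2 -2.80, SE 0.27, edgeR adjusted p = 0.000536). The growth factor gene hbegfa had 106, 157 and 75.4 CPM and then 20.3, 29.2 and 22.6 CPM (log2 -2.15, SE 0.19, edgeR adjusted p = 0.000536). The gene cobll1a had 70.7, 76.0 and 58.7 CPM and then 13.2, 22.4 and 16.5 CPM (log2 -1.96, edgeR adjusted p = 0.00074). The values of these 3 at 3 hpf were all below 30 CPM. Others were commd6, timm22 (a subunit of the mitochondrial protein import machinery), ap3s2 (a subunit of an endosomal coat adaptor), alg10, sumo2a, isca2, gbgt1l1, lamtor3 and timm21, with changes of -3.26 to -1.80. The call of timm22 (adjusted p = 0.0308) was lost whichever of the 3 replicate numbers was left out, and those of commd6, ap3s2, alg10, isca2 and timm21 without at least 1 of them, while pef1, hbegfa and cobll1a were called without each.

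Relative to section B, 5 named genes moved away from D. The largest was ppdpfb, with 198, 218 and 204 CPM in D at 1 hpf and 105, 121 and 91.4 CPM at 3 hpf, beside 129, 197 and 219.9 CPM and 168, 193 and 178 CPM in B. The stages overlapped in B and not in D (difference -0.98, SE 0.14, edgeR adjusted p = 0.00185), and ppdpfb also fell in section E (log2 -0.93, adjusted p = 3.39e-05). The others were elavl1b, an RNA-binding protein gene of the HuR family (-0.82), coq10b (-0.70), the lipid synthesis gene aclya (-0.59) and the spindle assembly gene tpx2 (-0.52), with edgeR adjusted p from 0.0185 to 0.0358. With each of the 6 embryo samples left out in turn, the call of ppdpfb was lost in 0 cases, that of elavl1b in 4, those of aclya and tpx2 in 5 and that of coq10b in 6 (adjusted p from 0.0539 to 0.322).

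Most tested genes of the lists of dorsal determinants and vegetal oocyte RNAs rose in D. The same held for the zygotic, miR-430 and enveloping layer lists above, as a description only. The other lists held fewer calls, beside 1.62% of all genes higher and 1.79% lower. Among these, the decreases of 3 of 15 oocyte and egg coat genes and 4 of 30 centrosome and spindle genes were larger shares. Of the 6 genes of dorsal determinants and their transport, 5 could be tested and 3 rose (hwa, grip2a and sybu), and of 17 vegetal oocyte RNAs 15 could be tested and 11 rose, both with a median log2 change of 1.57, but these lists and the vegetal list share members. Among 11 animal pole RNAs, aurka fell and 0 rose. Of 9 genes that act in genome activation, eomesa, a T-box factor, rose from 260.2, 271 and 342 CPM to 409.8, 464 and 447 CPM (log2 0.61, SE 0.12, edgeR adjusted p = 0.0168, and 0.15 without replicate 2). In the RNA decay list of 31 genes, lsm14ab, a protein of RNA granules, rose from 269, 228 and 316 CPM to 769, 443 and 438 CPM (log2 0.99, edgeR adjusted p = 0.00671, and 0.0534 without replicate 2) and zar1l_1, 1 of the table's copies of that symbol, fell from 57.2, 63.4 and 69.5 CPM to 22.9, 26.6 and 20.2 CPM (log2 -1.45, edgeR adjusted p = 0.00245). Oocyte and egg coat genes had 3 decreases of 15, among them org, from 567, 675 and 584 CPM to 304, 358 and 241 CPM (log2 -1.02, SE 0.12, edgeR adjusted p = 0.00149), and zp3b, an egg coat protein gene (-0.63, edgeR adjusted p = 0.0215, and 0.073 and 0.0741 without replicates 2 and 3). DNA replication had 2 decreases of 30 (ticrr and pola1), histones and their chaperones 2 of 17 (nasp_1 and asf1ba) and the cell cycle 1 of 19 (mad2l1), with log2 changes of -0.78 to -0.54. Of these, nasp_1 was called whichever replicate number was left out, while the call of mad2l1 was lost in each case (edgeR adjusted p = 0.0577, 0.0597 and 0.154), those of ticrr and pola1 without replicate 1 or replicate 2, and that of asf1ba without replicate 2 or replicate 3. Of 64 ribosomal protein genes, edgeR within replicate numbers called 0, with 7 lower and 0 higher at an unadjusted p under 0.05 (median log2 -0.12), and DESeq2 called 0. No gene of the ovarian follicle (3 tested) or stress lists (3 tested) was called, and no gene of the liver and blood list had a row.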

How the data were processed

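The deposited table holds raw counts per gene, made by the authors, for 40 libraries of sections A to E at 1, 2 and 3 hpf. Total RNA was taken up in TRI reagent, cleaned by LiCl precipitation and depleted of ribosomal RNA before directional library preparation, per the labels' protocols. fastp 0.23.4, STAR 2.7.11, HTSeq 2.0.4 and DESeq2, and the build GRCz11, are named per the submitters' processing notes. How reads that match several copies were counted is not given in the sources used here. The sections of replicate 3 at 2 hpf were not analysed here.

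Counts were tested with edgeR 4.0.16 (quasi-likelihood test, TMM scaling, filterByExpr, Benjamini-Hochberg adjustment) in R 4.3.3, on the 6 libraries of section D for its stage change, and on the 30 libraries of 1 and 3 hpf for the difference of stage changes. DESeq2 1.42.0 was an alternative. The fits were run on simulated counts with known changes, equal in all replicate numbers, and with replicate effects shared between stages. In the data the vegetal RNAs changed unequally between numbers, so the simulation does not show how the fits perform on them. The replicate block is printed beside the fit without it because same-numbered libraries deviated together (correlations of 0.421, 0.402 and 0.751 over genes with a mean of at least 5 CPM). The numbers come from the labels, which do not say what they share. P-values measure only the spread between these samples. CPM are counts divided by the library total and its TMM factor over the 40 libraries, times 1e6. The vegetal RNAs were chosen by E over A at 1 hpf, without section D.

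Genes were named by rule: called genes with the largest changes in each comparison, no overlap between stages and at least 10 CPM, the 15 most vegetal RNAs with at least 50 CPM in E, the called genes of each list (at most 4) and a fixed set of known genes. For the largest changes only descriptive symbols were taken, not clone or locus names or numbered copies. The gene lists and this rule were chosen with earlier results of these data known. Other scalings, no filter on low counts, DESeq2, the block, other reference sections and each replicate left out were tried, as were the alternatives of the blocked fit, which were added after seeing the data.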

Additional observations from a re-analysis of the deposited data

Results flagged for a closer look

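The stage change of section D differed from that of section B, by the interaction test of edgeR over the 30 libraries with the embryo sample as a block, for 13 of the genes named by the rule. Toward D, the differences of the log2 changes were 1.77 for gnav1, 1.63 for pip4k2aa, 1.51 for tapt1a, 1.51 for celf1, 1.42 for map3k1, 1.2 for larp4b, 1.19 for cdr2a and 1.19 for mob1bb. Away from D they were -0.98 for ppdpfb, -0.82 for elavl1b, -0.70 for coq10b, -0.59 for aclya and -0.52 for tpx2. Each sign was the same in all 9 pairs of a 1 hpf with a 3 hpf embryo sample, as the rule for naming asked. The calls were less steady: of the 6 fits that leave out 1 embryo sample, coq10b lost its call in 6, pip4k2aa, tapt1a, larp4b, aclya and tpx2 in 5, elavl1b in 4, gnav1, celf1 and mob1bb in 3, map3k1 and cdr2a in 2 and ppdpfb in 0.

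The transmembrane protein gene tapt1a is the 1 of the 8 that is not a vegetal RNA. In D it had 20.6, 22.2 and 14.5 CPM at 1 hpf and 29.96, 13.1 and 13.03 CPM at 3 hpf, not called by edgeR (log2 -0.09, adjusted p = 0.93). In B it had 25.5, 22.7 and 15.3 CPM and then 7.01, 6.98 and 6.57 CPM, a decrease (log2 -1.59, edgeR adjusted p = 0.00345), so that its difference came with a change in B.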

How the results depend on the processing

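Without the block, edgeR called 0 genes higher and 2 lower in D. The other settings gave 203 and 224 with the replicate block, 2 and 27 with library totals, 162 and 159 with DESeq2, 287 and 359 with all 40 libraries in 1 fit, and 0 lower with no filter on low counts. Leaving out a library gave 0 to 69 higher and 0 to 33 lower, with medians of 0.413 to 0.744 for the vegetal and -0.592 to -0.113 for the animal RNAs. With the block, lower genes numbered 374 with library totals and 149 with DESeq2. Without 1 replicate number they ranged from 88 to 214, the higher genes from 69 to 235 and the vegetal RNAs among them from 49 to 182. For D minus B, 27 genes moved toward D, 7 away, 21 of the 27 vegetal. The counts were 0, 1 and 0 with no replicate block, 79, 13 and 68 against section A, 44 and 21 (all genes) with DESeq2, and 13, 1 and 11 with B and D alone. Without 1 embryo sample they ranged from 0 to 98, from 1 to 44 and from 0 to 75. The difference in the place of D between B and E ranged from 0.0911 to 0.262.

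Small changes switched sign. Without the block, buc (-0.011) was 0.018 with the block, 0.0084 with DESeq2 size factors and with DESeq2, and 0.00395 with no filter, and lrmp (0.0067) was -0.13 with the block and -0.037 with library totals. Within replicate numbers, buc was -0.048 with library totals. Leaving out a library gave ranges in D without the block of -0.095 to 0.17 for buc, -0.42 to 0.36 for lrmp, -0.55 to 0.17 for tapt1a, -0.64 to 0.13 for pcnt, -0.20 to 0.077 for cep350 and -0.19 to 0.12 for ddx4. Within replicate numbers they were -0.15 to 0.16 for buc, -0.61 to 0.30 for lrmp, -0.43 to 0.19 for tapt1a and -0.054 to 0.0047 for ddx4, and for D minus B -0.48 to 0.36 for lrmp. The causes were not tested. At the depth of D at 3 hpf, RNAs of a few reads, such as the zygotic ones, carry wide counting error.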
